A study of Mus musculus with 2 samples.

Results

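The 92 autosomal protein-coding mouse genes whose symbols begin with Kcn were examined for open chromatin in the hippocampus, out of 20674 autosomal protein-coding genes in all. They were chosen by symbol alone from the GENCODE M21 gene models, and 2 X-linked Kcn genes were left out. They carry 19 subfamily letters, from Kcna to Kcnv. By role, 76 encode pore-forming subunits and 16 encode auxiliary subunits or regulators.

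Chromatin was measured by DNase-seq, in which the nuclease DNase I cuts where DNA is not covered by nucleosomes and clusters of cuts are called as peaks. There were 2 libraries, biological replicates 1 and 2 of a single group, both from hippocampus of B6CASTF1/J females, a first-generation hybrid mouse, aged 14 days, and each label names 3 females. By the labels the libraries share a donor identifier but not a biosample identifier, so it is not established that they came from separate animals or pools, and part of the spread between them may be technical. A single group allows neither a comparison of conditions nor a test. Each value of the Kcn genes is set beside the same value over all autosomal protein-coding genes, and genes are not replicates of a condition.

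Replicate 1 had 115699 listed peaks and replicate 2 had 167829, and the median width was 200 bp in both. The signal column is the authors' own, on a scale that the sources do not state, and the depth in reads is unknown. Median signal over all peaks was 0.821 in replicate 1 and 0.485 in replicate 2, so a signal is compared only within a library, mostly as a percentile. Markers of the tissue were read the same way. A promoter peak was present in both libraries at 5 of 6 genes of excitatory hippocampal neurons, 4 of 4 of astrocytes, 3 of 3 of microglia, 2 of 4 of the oligodendrocyte lineage, 1 of 3 of inhibitory neurons, 1 of 3 of vessels and 0 of 3 of choroid plexus. Among genes of other tissues it was present at 1 of 6. Over all autosomal protein-coding genes the share was 63.1%, so counts from such short lists say little about the tissue. The tissue is a mixture, and a weak peak in many cells and a strong peak in few cells cannot be told apart.

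Potassium channels let potassium leave the cell and so set the resting potential, end action potentials and limit repetitive firing. Pore-forming subunits fall into voltage-gated, calcium- or sodium-activated, inward-rectifying and background leak channels, and auxiliary subunits change their gating or their delivery to the membrane. In hippocampal neurons, A-type channels dampen dendritic excitation, delayed rectifiers shape the spike, M-current channels hold back bursts, and G protein-gated inward rectifiers carry slow inhibition. Astrocytes clear potassium from around active neurons through inward rectifiers of their own.

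Most Kcn promoters were open, and most of them weakly. A peak within 500 bp of the start of a protein-coding transcript, called a promoter peak here, was found in both libraries at 70 of 92 Kcn genes, or 76.1%, against 63.1% of all genes. In replicate 1 it was found at 77 Kcn genes (83.7%, against 67.2% of all genes), and in replicate 2 at 72 (78.3%, against 64.7%). The excess over all genes depended on the peak list. With the authors' stricter peak list of each library, 55 Kcn genes kept a promoter peak in both, 59.8% against 58.6% of all genes, while equal numbers of peaks from the longer lists gave 66, 71.7% against 61.2%. At the annotated 5′ end of the gene alone, 59 had one, 64.1% against 58.4%.

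**Figure D1:**
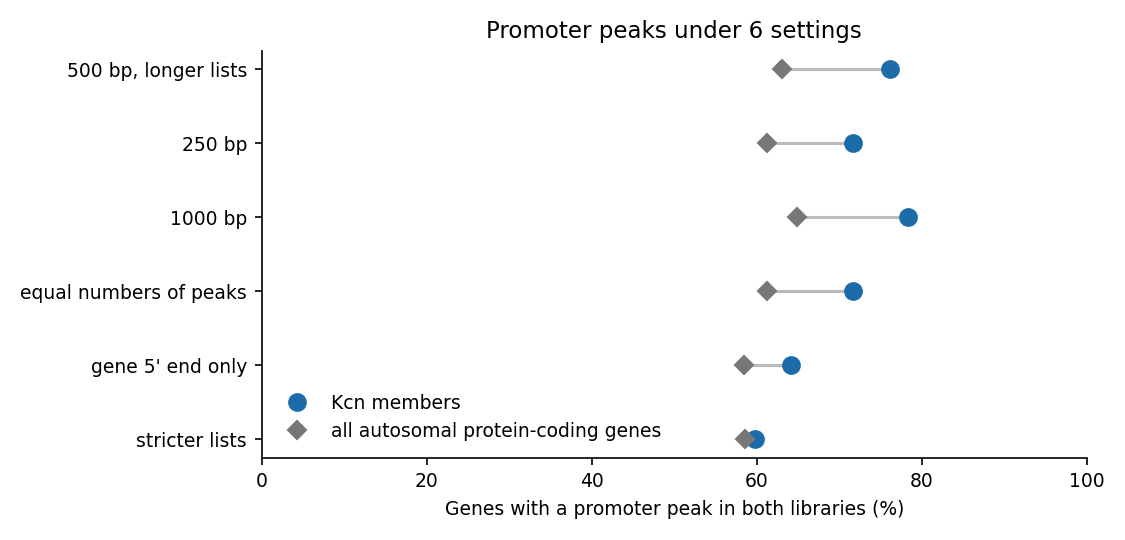
Share of genes whose promoter held a peak in both libraries (x axis, percent) under 6 settings (y axis), with Kcn genes as blue circles and all autosomal protein-coding genes as grey diamonds. The Kcn share is above that of all genes by the widest margin with the longer peak lists and windows of 500 or 1000 bp, and the 2 shares nearly meet at 59.8% and 58.6% with the stricter lists.

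Signal at these promoters was low for a gene with an open promoter. The strongest promoter peak of a Kcn gene had a median signal of 2.35 in replicate 1 and 0.894 in replicate 2, against 5.81 and 2.62 over all genes with a promoter peak. In percentiles of all such genes the Kcn medians were 24.5 in replicate 1 and 19.8 in replicate 2. By the smaller percentile of both libraries, 65 of the 70 Kcn genes open in both (92.9%) lay below the 50th percentile, as did 53.2% of all genes open in both. Below the 10th percentile were 19 Kcn genes, or 27.1%, against 9.46% of all genes. Across the 70 Kcn genes, promoter signal in the libraries correlated with Pearson's r of 0.861 and Spearman's rho of 0.878, a description over genes that share their libraries and differ in base composition. The strongest peak was taken over all starts of a gene, so the values of a gene can come from different starts, as at Kcnn2 and Kcnc2.

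**Figure D2:**
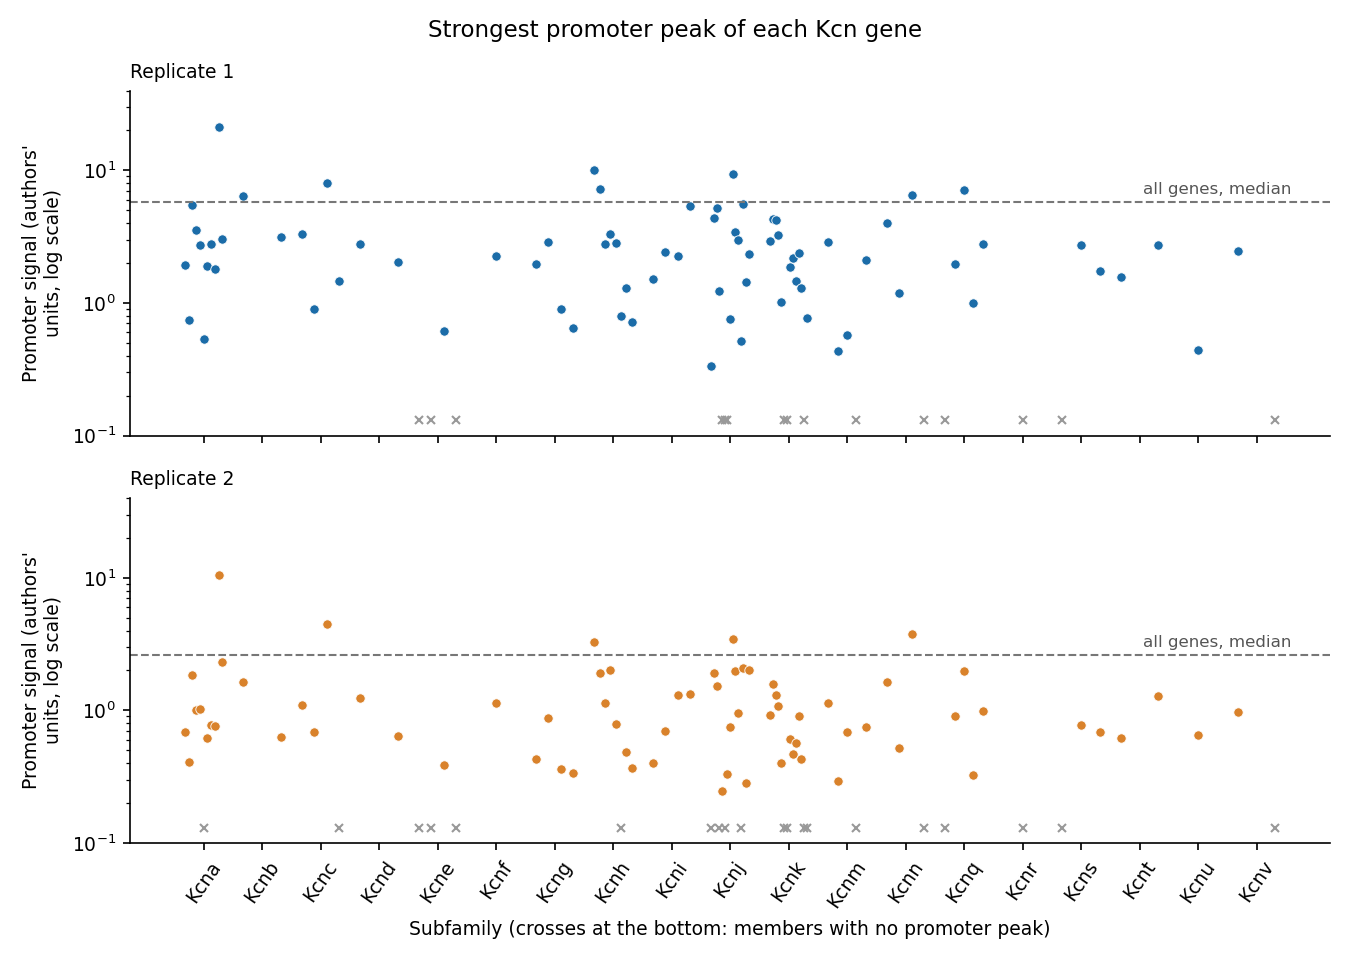
Signal of the strongest promoter peak (y axis, authors' units, log scale) for each of the 92 Kcn genes by subfamily letter (x axis), replicate 1 above and replicate 2 below; crosses mark genes with no promoter peak and the dashed line is the median over all genes with one. Most points lie under the dashed line, at 5.81 in replicate 1 and 2.62 in replicate 2, and a Kcna point, Kcnab2, stands highest in both.

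Only 5 Kcn genes exceeded the 50th percentile in both libraries. Kcnab2, which encodes a beta subunit of Shaker-type channels, reached 21.2 in replicate 1 and 10.5 in replicate 2, at the 98.6 percentile or above. That peak on chromosome 4 also lay within 500 bp of a start of Nphp4, a cilium gene, and was counted for both genes. Kcnj2, a strong inward rectifier, had 9.31 and 3.46 in replicates 1 and 2, and Kcnh1, an ether-à-go-go channel, had 10.1 and 3.28. Kcnn3, a small-conductance calcium-activated channel, had 6.53 and 3.77. Those just below them included Kcnj6 (5.53 and 2.09), Kcnq3 (7.14 and 1.98), Kcnh2 (7.21 and 1.92), Kcnj10 (4.36 and 1.92) and Kcna2 (5.47 and 1.86).

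A pair of these strong promoters were poor in CpG dinucleotides. The ratio of observed to expected CpG within 500 bp of a start, at the start where it is highest, was 0.426 at Kcnj2 and 0.403 at Kcnn3, against a median of 0.636 over Kcn genes and 0.628 over all genes. Kcnj9, a G protein-gated inward rectifier subunit, had a ratio of 0.272 and was open all the same, at 2.35 in replicate 1 and 2.02 in replicate 2. With the stricter lists it did not keep a promoter peak in both libraries. At the opposite end stood Kcnq1, with a ratio of 0.749 at a start 892 bp inside the gene and no promoter peak in either library. Their sequences are given to show that contrast: 250 bases before the start, in the direction of transcription, from the GRCm38.p6 genome that mm10 names, with each CpG in capitals. The windows are chr11:111065914-111066163 on the plus strand for Kcnj2, chr3:89519914-89520163 on the plus strand for Kcnn3, chr1:172329319-172329568 on the minus strand for Kcnj9 and chr7:143107004-143107253 on the plus strand for Kcnq1. The first 3 precede the annotated 5′ end of the gene.
Kcnj2: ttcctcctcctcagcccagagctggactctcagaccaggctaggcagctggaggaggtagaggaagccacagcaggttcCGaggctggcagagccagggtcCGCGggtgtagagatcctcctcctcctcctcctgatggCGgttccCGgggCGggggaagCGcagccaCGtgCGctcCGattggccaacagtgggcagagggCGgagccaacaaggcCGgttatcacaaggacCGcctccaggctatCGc
Kcnn3: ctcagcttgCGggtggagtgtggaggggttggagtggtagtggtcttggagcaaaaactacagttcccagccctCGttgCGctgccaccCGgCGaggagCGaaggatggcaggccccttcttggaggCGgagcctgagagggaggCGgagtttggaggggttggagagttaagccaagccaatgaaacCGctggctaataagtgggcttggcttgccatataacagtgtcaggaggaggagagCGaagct
Kcnj9: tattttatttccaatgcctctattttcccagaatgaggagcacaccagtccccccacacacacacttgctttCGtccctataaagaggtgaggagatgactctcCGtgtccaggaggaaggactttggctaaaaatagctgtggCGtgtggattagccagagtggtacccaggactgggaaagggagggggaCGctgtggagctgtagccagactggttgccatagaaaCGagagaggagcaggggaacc
Kcnq1: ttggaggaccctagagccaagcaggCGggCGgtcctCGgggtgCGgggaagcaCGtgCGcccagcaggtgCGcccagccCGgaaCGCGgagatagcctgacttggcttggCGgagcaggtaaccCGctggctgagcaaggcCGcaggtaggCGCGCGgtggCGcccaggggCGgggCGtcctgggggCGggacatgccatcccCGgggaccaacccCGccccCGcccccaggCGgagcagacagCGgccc
The Kcnj2 window held 14 CpGs, the Kcnn3 window 10, the Kcnj9 window 5 and the Kcnq1 window 25. Peaks covered 183 of the 250 bases in replicate 1 and 163 in replicate 2 at Kcnj2, 223 in both at Kcnn3, and 109 and 122 at Kcnj9. At Kcnq1 they covered 0 in both.

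Splitting genes at the CpG median of all genes separated 2 patterns. Of the 46 Kcn genes at or above 0.628, 42 had a promoter peak in both libraries, or 91.3%, against 94.3% of all genes on that side. Of the 46 Kcn genes below it, 28 did, or 60.9%, against 32% of all genes. The difference from all genes therefore lay among CpG-poor promoters in this split, which used the longer lists. It was not repeated with the stricter lists, where the undivided shares nearly met at 59.8% and 58.6%.

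Listed neuronal voltage-gated channels were open. All 10 listed delayed rectifiers and A-type channels had a promoter peak in both libraries, and all 10 kept it with the stricter lists. The shares of all genes were 63.1% and 58.6%. The Shaker-type channels of axons included Kcna1 (1.93 in replicate 1 and 0.692 in replicate 2), Kcna2 and Kcna4 (2.74 and 1.03). Kcnb2, a delayed rectifier of neuronal cell bodies, had 3.12 and 0.629. The fast-spiking channel Kcnc1 had 3.31 and 1.10, and Kcnc2 had the lowest signal of the list in replicate 1, 0.904 there and 0.692 in replicate 2. The Kcnc2 values came from different starts. Its 5′ end had 0.904 in replicate 1 and no peak in replicate 2, and a start 44219 bp inside had 0.463 and 0.692. For the A-type channels of dendrites, Kcnd2 had 2.79 and 1.24 and Kcnd3 had 2.02 and 0.640. All of the members named here lay under the median signal of all genes in both libraries.

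Other Shaker-type and related voltage-gated genes varied more. In the Kcna genes off that list, Kcna3 had 3.55 and 1.00 in replicates 1 and 2, Kcna6 had 1.91 and 0.623, Kcna7 had 2.79 and 0.773, and Kcna10 had 0.737 and 0.410. Kcna5 was called in replicate 1 alone, at 0.539. All 4 Kcng genes, whose products are silent alone and modify Kcnb channels, were open in both, with signals from 0.340 in replicate 2 at Kcng4 to 2.89 in replicate 1 at Kcng2. Kcnf1 (2.25 and 1.14), Kcns2 (2.75 and 0.773), Kcns3 (1.73 and 0.692) and Kcnv1 (2.47 and 0.969), of the same silent kind, were open as well, while Kcns1 and the retinal Kcnv2 had no promoter peak. Among the 8 Kcnh genes 7 were open in both, from Kcnh1 at the top to Kcnh8 at 0.714 and 0.369. The exception, Kcnh6, had 0.798 in replicate 1 alone.

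The genes chosen for the M-current, G protein-gated, calcium-activated and sodium-activated lists were open in both libraries, as 3 of 3, 3 of 3, 4 of 4 and 2 of 2. The lists do not hold every gene of these classes: off them, the G protein-gated Kcnj5 had 0.517 in replicate 1 alone and the calcium-activated Kcnn4 had no promoter peak. For the M-current, Kcnq3 had 7.14 in replicate 1 and 1.98 in replicate 2 and Kcnq5 had 2.80 and 0.981. The G protein-gated Kcnj6 and Kcnj3 had 5.53 and 2.09, and 3.44 and 1.97. The large-conductance calcium-activated channel Kcnma1 had 2.89 and 1.14, and the small-conductance Kcnn1 and Kcnn2 had 4.01 and 1.65, and 1.19 and 0.519. The Kcnn2 values came from different starts. Its start near the 5′ end had 1.19 and 0.358, and the 0.519 belonged to a start 291294 bp inside, with no peak in replicate 1. Sodium-activated Kcnt2 had 2.75 and 1.28, and Kcnt1 had 1.58 and 0.617. Over these and the voltage-gated list, 22 of 22 genes were open in both libraries, against 63.1% of all genes. With the stricter lists 20 were, or 90.9%, without Kcnj9 and Kcnt1, against 58.6% of all genes. Both counts rest on the choice of the lists, which leave out Kcnj5, Kcnn4 and the voltage-gated Kcnc4, none of them open in both.

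Leak channels were open with lower signals. Of 6 listed, 5 had a promoter peak in both libraries: Kcnk10 (4.29 in replicate 1 and 1.59 in replicate 2), Kcnk1 (2.91 and 0.929), Kcnk3 (2.18 and 0.473), the mechanosensitive Kcnk2 (1.85 and 0.606) and Kcnk4 (1.47 and 0.571). With the stricter lists 3 did. Kcnk9, an acid-sensitive leak channel, had 0.775 in replicate 1 alone. Of the leak genes off the list, Kcnk12 was the strongest, at 4.22 and 1.30. Kcnk16, Kcnk18 and Kcnk7 had none in either library.

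Among inward rectifiers, 9 of 15 Kcnj genes were open in both libraries, 5 in a single library and 1 in neither. The share open in both, 60.0%, was near the 63.1% of all genes. Kcnj10, the main inward rectifier of astrocytes, had 4.36 in replicate 1 and 1.92 in replicate 2, and its glial partner Kcnj16 had 0.752 and 0.744. Kcnj11, the pore of the ATP-sensitive channel of neurons and pancreatic beta cells, had 5.17 and 1.52, and Kcnj8, its counterpart in vessels, had 1.45 and 0.283. The other vascular gene listed, the smooth muscle auxiliary Kcnmb1, had 0.433 and 0.294 and was lost with the stricter lists. Kcnj4, a neuronal inward rectifier, had 2.96 and 0.958. Kcnj14 had none.

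Channels best known outside the brain were mixed. Of 12 listed, 3 had a promoter peak in both libraries, 3 in a single library and 6 in neither. Those open in both were Kcnk5 (2.38 in replicate 1 and 0.911 in replicate 2), Kcne3 (0.615 and 0.386) and the sperm channel Kcnu1 (0.441 and 0.652). The kidney channel Kcnj1 had 0.334 in replicate 1 alone, Kcnj13, a channel of choroid plexus and retinal epithelium, had 0.248 in replicate 2 alone, and Kcnj15 had 0.329 in replicate 2 alone. No promoter peak was found at the cardiac pair Kcnq1 and Kcne1, at Kcnk16 of the pancreas, Kcnk18 of sensory neurons, Kcnn4 of blood cells or Kcnv2 of the retina. The 3 open in both were also open with the stricter lists, where the share of all genes was 58.6%.

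Auxiliary subunits were divided. The 7 listed were open in both libraries, against 63.1% of all genes. With the stricter lists 5 were, or 71.4%, against 58.6% of all genes. Besides Kcnab2, Kcnab1 had 1.80 in replicate 1 and 0.767 in replicate 2. Of the calcium-binding subunits of A-type channels, Kcnip4 had 5.36 and 1.32, Kcnip2 had 2.41 and 0.698, Kcnip3 had 2.27 and 1.31 and Kcnip1 had 1.52 and 0.398. Kcnmb4, the neuronal auxiliary of Kcnma1, had 2.12 and 0.750, and Kcnab3, off the list, had 3.02 and 2.30. Kcnmb2 was open in both as well, while 3 of 4 Kcne genes, Kcnmb3 and Kcnrg had no promoter peak. Among 15 partner genes outside the family, 13 were open in both libraries, or 86.7%, against 63.1% of all genes. They included Dpp6 (3.70 and 1.85), a membrane partner of A-type channels, and Lgi1 (2.55 and 3.09), a secreted partner of Shaker-type channels. Abcc9 and Lrrc55 were open in replicate 1 alone.

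Promoters called in a single library numbered 9, or 9.78%, against 5.68% of all genes. In replicate 1 alone were Kcna5, Kcnc4, Kcnh6, Kcnj1, Kcnj12, Kcnj5 and Kcnk9 (7.61%, against 4.08%), and in replicate 2 alone Kcnj13 and Kcnj15 (2.17%, against 1.60%). The deposited false discovery rate of the cut rate, listed only where it is under 0.05, gives a reading that needs no peak. Within 500 bp of the starts of Kcnc4, a fast voltage-gated channel, 100% of bases were listed in replicate 1 and 0% in replicate 2. At Kcnk9 it was 56.9% and 0%, and at Kcnj12, an inward rectifier, 41.1% and 0%. These 3 promoters are CpG-rich, with ratios of 0.801, 0.911 and 0.922. At the other 4 called in replicate 1 alone the share in that library was between 3.96% and 12.6%. In replicate 2 it was 0% at Kcna5, Kcnh6 and Kcnj5. At Kcnj1 it was 5.09% in replicate 2, above the 3.96% of replicate 1, where the peak was called.

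Kcn promoters with no peak in either library numbered 13, or 14.1%, against 31.2% of all genes. They were Kcne1, Kcne2, Kcne4, Kcnj14, Kcnk16, Kcnk18, Kcnk7, Kcnmb3, Kcnn4, Kcnq1, Kcnrg, Kcns1 and Kcnv2. At 12 of the 13 no base was listed under the threshold in either library, and at Kcnk16 0.549% and 0.899% of bases were. Their median CpG ratio was 0.267, against 0.695 for the 70 open in both. Kcnq1 was the exception, with no peak at its CpG-rich start. Inside Kcnq1, the start of the antisense transcript Kcnq1ot1 had a peak at chr7:143296461-143296660 in replicate 1 (signal 4.03) and at chr7:143296561-143296800 in replicate 2 (4.97).

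The gap between libraries was wider at Kcn starts than at all starts, a description without a test. Over the 500 bp on either side of each start, the median Kcn gene had 44.2% of bases listed in replicate 1 and 29.7% in replicate 2, against 38.5% and 31.6% over all genes. In the 100 bp upstream of 238 Kcn starts 55.4% of bases were listed in replicate 1 and 43.4% in replicate 2, against 55.6% and 52.5% upstream of all starts. From 200 to 300 bp downstream it was 44.2% and 27.2%, against 49.7% and 41.5%. Every base was listed at 12 Kcn genes in replicate 1 (13.0%, against 6.39% of all genes) and at 5 in replicate 2 (5.43%, against 5.77%). The strongest promoter signal of replicate 1 over that of replicate 2, not always at the same start, had a median of 2.66 at Kcn genes, with a range from 0.676 to 5.13. At all genes open in both the median ratio was 2.42. At Kcn genes the ratio varied by gene. It was highest at Kcnj8 and below 1 at 2 genes, Kcnu1 and the Kcnma1 auxiliary Kcnmb2, which had 0.570 in replicate 1 and 0.692 in replicate 2.

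**Figure D3:**
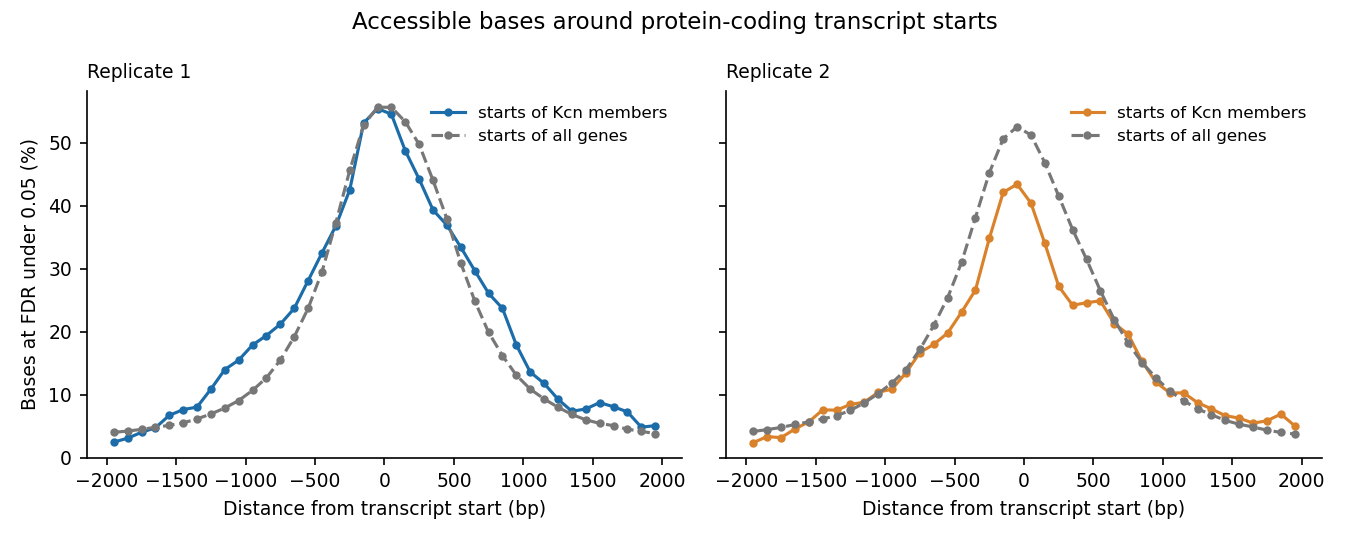
Percent of bases listed at a false discovery rate under 0.05 (y axis) by distance from the transcript start in 100-bp steps (x axis, bp, upstream to the left), for starts of Kcn genes (solid) and of all genes (dashed), with replicate 1 left and replicate 2 right. Just upstream of the start the lines meet in replicate 1, at 55.4% and 55.6%, and stand apart in replicate 2, at 43.4% and 52.5%.

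Footprints, short stretches within open sites that resist cutting, were listed by the authors without a usable score. Promoter peaks of 77 Kcn genes held 552 in replicate 1, a median of 6 per gene, and those of 72 held 325 in replicate 2, a median of 4. All genes had medians of 6 in replicate 1 and 5 in replicate 2. The most were 25 at Kcnc1 in replicate 1 and 15 at Kcnq5 in replicate 2. Of the Kcn promoter footprints, 152 in replicate 1 and 164 in replicate 2 overlapped one of the other library. The same overlap was not counted over all genes, so these counts have no background to be read against.

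Where a Kcn gene had several starts, often not all of them lay at a peak of both libraries. Of the 60 Kcn genes with 2 or more distinct starts, 22 had every start open in both libraries, 23 some and 15 none. The same split was not made over all genes. A peak counts for every start within 500 bp of it, so close starts share peaks, and a peak does not show that a start is used. Kcnma1 had 7 of 11 starts open, 9.63 to 10.6 kb inside the gene, and no peak at its annotated 5′ end or at 3 starts deep in the gene. Kcnn1 had 2 of 7 open, 6.25 kb inside, and none at its 5′ end. At Kcnk2 the 4 starts open in both lay 58.1 to 58.9 kb inside, and the 2 starts at the 5′ end were open in replicate 2 alone, at 0.312. Kcnt1 had 7 of 8 open, Kcnip2 5 of 9, Kcnab2 4 of 6 and Kcnip4 3 of 5. At Kcnj15 and Kcnq1 none of 8 and none of 7 were open in both.

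Away from promoters, Kcn genes carried more peaks than the typical gene. A distal peak here lies over 1 kb from every annotated transcript start and inside the gene or within 20 kb of it. In both libraries 83 Kcn genes had at least 1, or 90.2%, against 73.5% of all genes, and 22 had 10 or more, or 23.9%, against 6.32%. The median was 5 in replicate 1 and 6 in replicate 2, against 2 and 3 over all genes. Kcn genes are also longer, with a median window of 72.2 kb against 57.6 kb. Per 100 kb the medians were 4.31 and 6.95 at Kcn genes, against 2.76 and 4.51. Among the 38 Kcn genes with windows in the longest quartile, over 85.6 kb, the median was 10.5 in replicate 1 and 16 in replicate 2, against 5 and 8 over all genes of that quartile. In the shortest quartile it was 2 and 3 at 11 Kcn genes, against 1 and 1. The mean count correlated with window length across Kcn genes (Spearman's rho 0.804, n = 92), as it did across all genes (0.565, n = 20674).

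**Figure D4:**
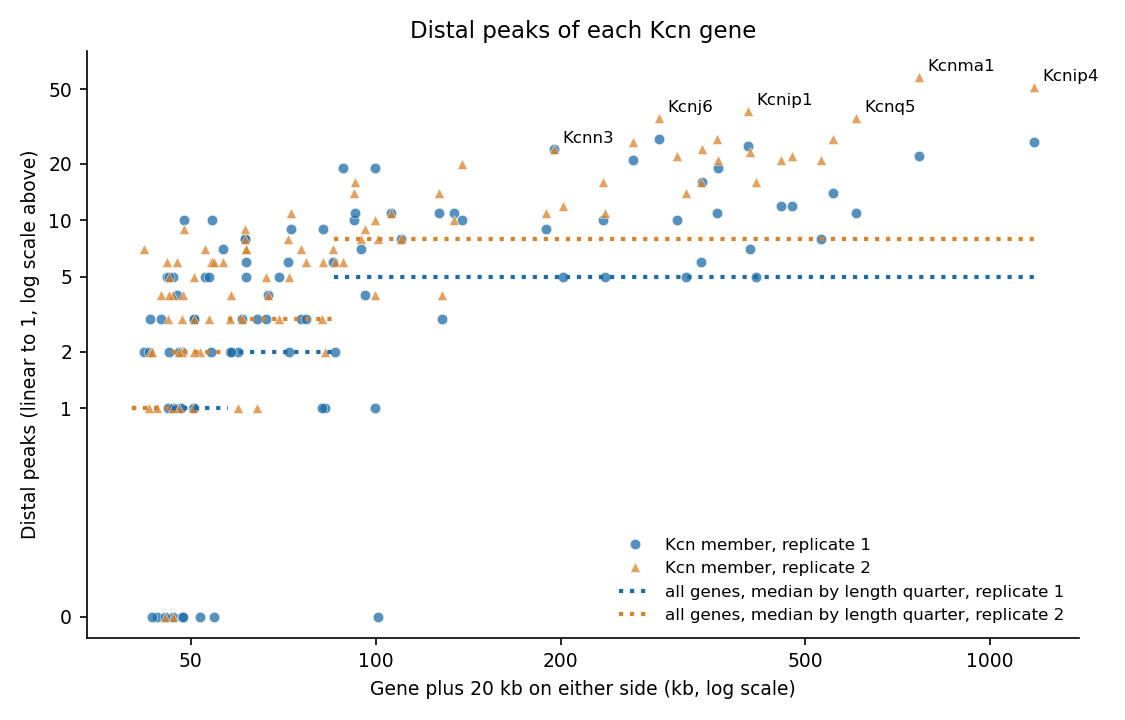
Distal peaks of each Kcn gene (y axis, linear to 1 and log scale above) against the length of the gene plus 20 kb on either side (x axis, kb, log scale), with replicate 1 as circles and replicate 2 as triangles; dotted lines are medians of all genes in each quartile of length. Long genes such as Kcnma1 and Kcnip4 stand highest, with 22 and 26 in replicate 1 and 58 and 51 in replicate 2, and most Kcn genes of the longest quartile lie above the dotted lines at 5 and 8.

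In all 606 distal peaks in replicate 1 and 938 in replicate 2 were assigned to Kcn genes, 71.3% and 72.9% of them inside the gene. Windows of 4 pairs of Kcn genes touch, so 8 peaks in replicate 1 and 7 in replicate 2 were counted for both. Another gene spanned 46 of the 174 flank peaks in replicate 1 and 50 of 254 in replicate 2. Of the distal peaks of replicate 1, 68.6% overlapped one of replicate 2, and of those of replicate 2, 44.9% overlapped one of replicate 1, against 69.2% and 43.0% of all autosomal distal peaks. Replicate 2, with the longer list, had more distal peaks at 64 Kcn genes (69.6%, against 54.5% of all genes). It had fewer at 14 (15.2%, against 17.2%). Counts in the libraries correlated across the 92 genes (Pearson's r 0.821, Spearman's rho 0.844).

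By the mean of both libraries, Kcnma1 had the most distal peaks, 22 in replicate 1 and 58 in replicate 2. Then came the A-type auxiliaries Kcnip4 (26 and 51) and Kcnip1 (25 and 38), Kcnj6 (27 and 35), Kcnn3 (24 and 24), Kcnd3 (21 and 26), Kcnq5 (11 and 35), Kcnd2 (14 and 27), Kcnq1 (19 and 21) and Kcnq3 (16 and 24). Kcnq1 thus ranked among the 10 with no open promoter, and 13 of its distal peaks were shared between libraries. Relative to length, the most were at Kcnj9, with 19.5 per 100 kb in the mean of both libraries, and Kcnj12, with 14.1, was also among the highest 5. Kcnj9 is short and 8 of its 10 peaks in replicate 1 lay in the flanks, where its neighbour Kcnj10 begins. At Kcnj12 the libraries disagreed, with 19 peaks in replicate 1, 6 in replicate 2 and 3 shared. Kcnab3 and Kcnrg had none in either library.

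By letter, the medians were highest for Kcnd (17.5 in replicate 1 and 26.5 in replicate 2), Kcni, which holds the Kcnip genes (18 and 24.5), Kcnq (16 and 21), Kcnb (11.5 and 16) and Kcnn (10 and 15). They were lowest for Kcnr (0 and 0), Kcnv (0 and 5), Kcne (3.5 and 3), Kcna (2 and 5), Kcnf (3 and 4) and Kcnu (3 and 4). Kcna genes are short, with a median window of 47.9 kb, against 408 kb for Kcnd. The M-current list had medians of 16 and 24, the calcium-activated list 17 and 22.5, and the G protein-gated list 10 and 12. Channels best known outside the brain had 2 and 3.5.

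**Figure D5:**
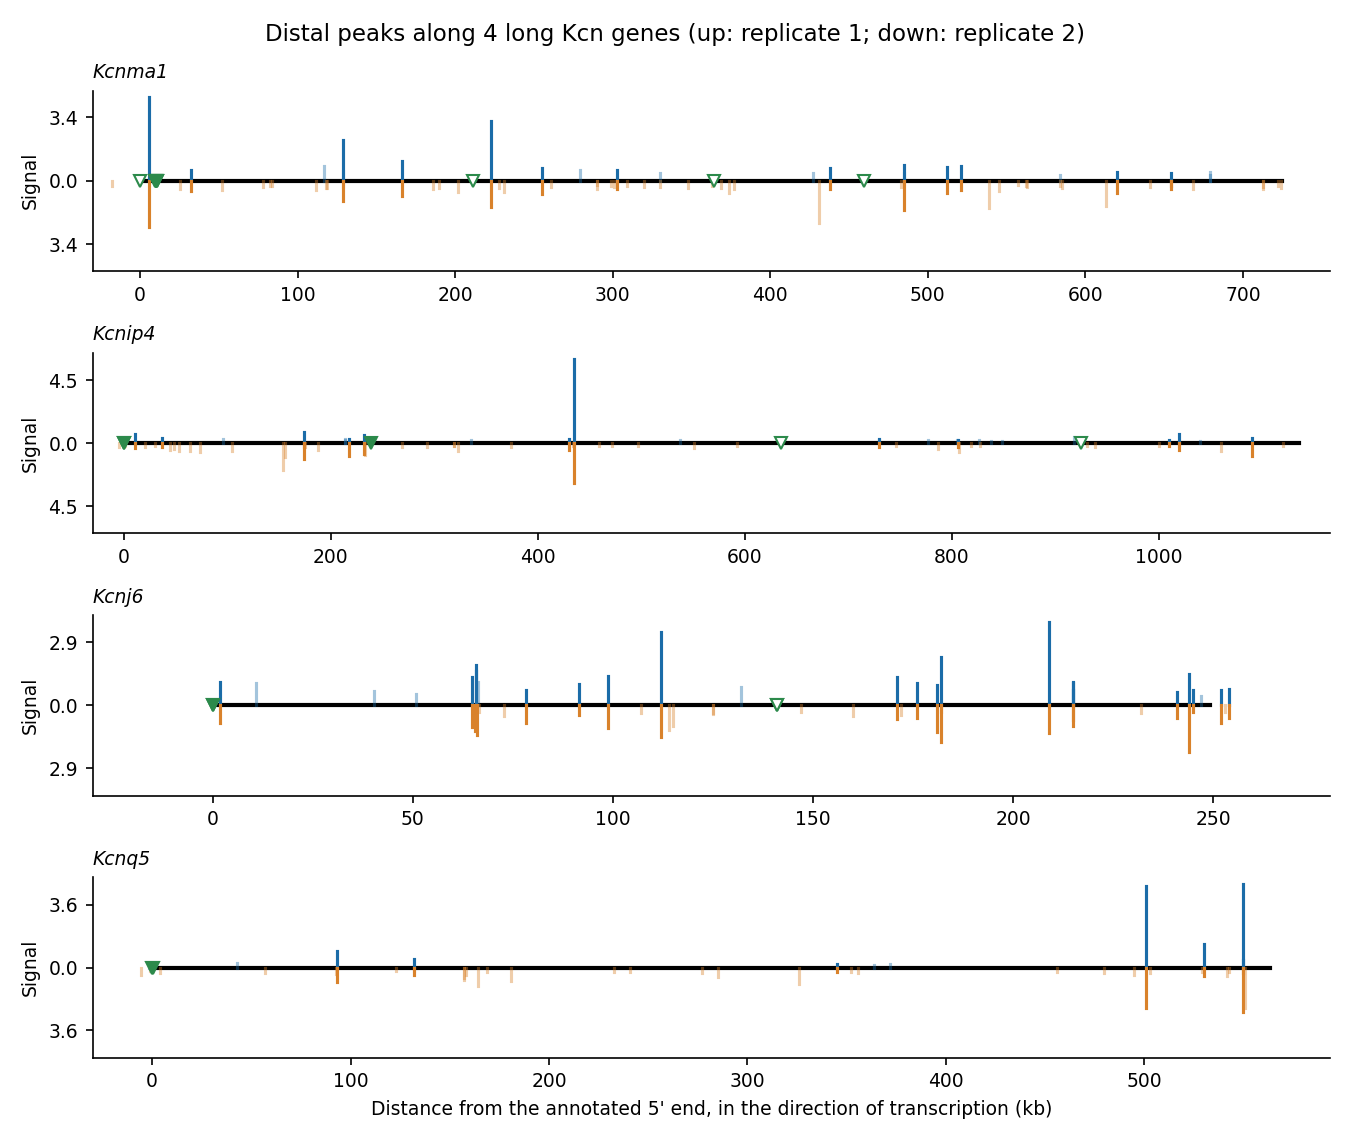
Distal peaks along 4 long Kcn genes by distance from the annotated 5′ end (x axis, kb), with signal upward for replicate 1 and downward for replicate 2; dark lines overlap a peak of the other library and pale lines do not, the black bar is the gene, and triangles are transcript starts, filled where open in both libraries. Strong shared sites stand alone in long stretches of weaker peaks, at 6.02 kb in Kcnma1, 435 kb in Kcnip4 and 501 and 550 kb in Kcnq5.

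The strongest distal sites exceeded the median promoter signal of all genes. The strongest shared one lay 2.46 kb upstream of Kcnn1, at chr8:70865481-70865960 in replicate 1 (signal 16.2) and chr8:70865661-70865940 in replicate 2 (9.53), and ranked at the 99.9 percentile of distal peaks. No other protein-coding gene spans it, and it lay past the 3′ end of A230052G05Rik, an uncharacterised transcript that runs head to head with Kcnn1. Its central 300 bases, chr8:70865651-70865950 on the plus strand, are shown for their base composition, with 23 CpGs and 64.3% G and C, and for their footprints. Capitals mark bases inside footprints of both libraries.
Kcnn1 upstream site: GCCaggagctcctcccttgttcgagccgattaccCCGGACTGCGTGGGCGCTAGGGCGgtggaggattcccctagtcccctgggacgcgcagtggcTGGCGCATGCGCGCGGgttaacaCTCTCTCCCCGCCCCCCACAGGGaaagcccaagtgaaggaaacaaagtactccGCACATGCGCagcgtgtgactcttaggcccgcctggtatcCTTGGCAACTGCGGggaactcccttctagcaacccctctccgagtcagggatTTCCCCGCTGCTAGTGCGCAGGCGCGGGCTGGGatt
The window held 7 such shared stretches. On either strand it had 1 match to CGCATGCG, the palindrome of the factor NRF1, and 2 matches to the GC box GGGCGG. In 300-base windows centred on distal peaks, CGCATGCG occurred in 0.495% of Kcn windows in replicate 1 and 0.426% in replicate 2, against 0.352% and 0.207% of all. The GC box occurred in 10.1% and 7.04% of Kcn windows, against 11.3% and 6.53%.

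Other strong shared sites included an intronic site of Kcnab2 at chr4:152434921-152435120 (9.52 in replicate 1 and 3.65 in replicate 2) and a site 2.60 kb inside Kcnip2 at chr19:45813361-45813560 (7.88 and 3.16). A site in the Kcnj9 flank inside Igsf8 had 7.65 and 4.10. Within Kcnip4 a site 435 kb from the 5′ end had 6.0 and 2.87, within Kcnq5 sites at 501 and 550 kb had 4.71 and 2.31, and 4.81 and 2.54, and within Kcnma1 a site 6.02 kb inside, between its 5′ end and its open starts, had 4.48 and 2.46. At Kcnq1 the strongest shared site, 47.7 kb inside, had 5.16 and 2.08. Of the Kcn distal peaks 76.9% in replicate 1 and 81.4% in replicate 2 held a footprint, against 76.1% and 79.1% of all autosomal distal peaks.

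A strong distal site at Kcnip3 carried the core of the insulator factor CTCF. The letters AGGTGGCAG, on either strand, occurred in 2.97% of Kcn distal windows in replicate 1 and 2.13% in replicate 2, against 2.17% and 1.65% of all distal windows. At 14 places the match lay in the windows of both libraries, and at 9 it overlapped a footprint in both, among them places at Kcnc1, Kcnc4, Kcng1, Kcnip3, Kcnj6, Kcnk16 and Kcnn2. These places were not counted over all distal windows, so the counts do not show whether Kcn sites differ. The Kcnip3 place lay in an intron 14.8 kb inside, in a peak of 7.17 in replicate 1 and 2.24 in replicate 2. It is shown with 30 bases on either side, at chr2:127507281-127507349 on the plus strand, the core in capitals.
Kcnip3 distal site: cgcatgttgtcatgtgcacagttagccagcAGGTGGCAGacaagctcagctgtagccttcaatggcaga
A match is a description of letters and was not tested as a binding site.

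Of the motifs searched in 300-base windows on the strongest promoter peak, the GC box was the most frequent at Kcn genes and elsewhere. It was in 67.5% of 77 Kcn windows in replicate 1 and 61.1% of 72 in replicate 2, against 70.2% and 66.7% of all promoter windows. The E-box CAGCTG was in 19.5% and 26.4%, against 17.4% and 16.4%, and the E-box CAGATG in 16.9% and 12.5%, against 9.63% and 10.8%. The NRF1 palindrome was in 0% and 0%, against 4.15% and 4.25%, and the cyclic AMP response element TGACGTCA in 1.30% and 1.39%, against 3.76% and 3.82%. Counts behind the rarer motifs are small: TTCAGCACC, the left part of the site of REST, a repressor of neuronal genes outside neurons, was in 3 windows in replicate 1, at Kcnh6, Kcnk3 and Kcns2, and in 0 in replicate 2. That is 3.90% and 0%, against 0.640% and 0.575%.

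The left part followed after 2 bases by the right part of the REST site, GGACAG, occurred at a single Kcn distal peak, upstream of Kcnh2, a channel of cardiac and neuronal repolarisation. The peak was called in replicate 2 alone, at chr5:24357607-24357754, with a signal of 0.519 and no footprint over the window. Among all distal windows 0.0309% in replicate 1 and 0.0240% in replicate 2 held both parts. The match reads on the minus strand and is shown with 30 bases on either side, chr5:24357583-24357659 on the plus strand, its parts in capitals.
Kcnh2 distal site: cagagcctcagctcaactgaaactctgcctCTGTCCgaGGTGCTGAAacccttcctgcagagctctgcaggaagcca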

How the data were processed

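DNase-seq was measured in 2 libraries of 1 group. Each library's listing names its own mm10 alignment as the source of its files, so the authors called peaks library by library. No tool or version is given in the sources. The authors deposited 2 peak lists per library with a signal per peak. Their score, p-value and q-value columns hold placeholders. The deposited footprint score was 0.01 in every row. The deposited FDR (q-value) files list only runs under 0.05.

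The longer list of each library was used, with GENCODE M21 starts of protein-coding transcripts and the GRCm38.p6 genome. Overlap meant at least 1 bp. Of 20807 autosomal protein-coding identifiers, 133 with a repeated symbol or no protein-coding transcript were left out. Promoter, distal and CpG measures are as defined in the results. Work was done in Python 3.11.15 with numpy 2.4.6 and pandas 2.3.3. The assignment of promoter and distal peaks and the motif search were tested on simulated peaks and sequences. The other steps were not. Alternatives were another peak list, other windows, starts and flanks, equal numbers of peaks, and each library alone.

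Named genes were the 10 members highest by promoter percentile, the 10 with the most distal peaks, the 5 with the most per 100 kb, the strongest of each subfamily, members of role lists, and those open in a single library or none. Some of these are not reported here. Other named features were chosen after their values were seen. The members and lists were chosen with earlier results of these data known, so they give no independent support.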

Additional observations from a re-analysis of the deposited data

How the results depend on the processing

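Kcn genes open in both libraries numbered 70, and it was 66 within 250 bp, 72 within 1000 bp, 71 with all transcript starts, 66 with equal numbers of peaks, 59 at gene 5′ ends and 55 with the stricter lists. The last 2 narrowed the difference from all genes. Replicate 1 alone gave 77 and replicate 2 alone 72. Subfamily letters with at least 50% of genes open numbered 17, and 14 with the stricter lists.

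The median of the mean distal count, 5.75, depended most on the settings: 3.50 with the stricter lists, 2.00 in gene bodies, 9.75 with 50 kb flanks, 4.5 over 2 kb from starts and 5.0 with equal numbers of peaks, with 5.0 to 6.0 in single libraries. The median smaller percentile, 20.2, was 19.7 within 250 bp, 16.5 with the stricter lists and 20.2 to 26.6 in single libraries. The share of bases listed, 37.0%, was 40.9% within 250 bp, and footprints wholly inside peaks numbered 857 of 877. Shared peaks averaged 79.2% at promoters (77.6% with the stricter lists and 78.9% with equal numbers) and 56.8% at distal sites (58.4% and 60.0%). These 2 alternatives were chosen after seeing the data. By library, 73.4% of Kcn promoter peaks were shared in replicate 1 and 85.0% in replicate 2, against 82.4% and 81.5% over all genes. The depth is unknown, so an absent weak peak does not show closed chromatin. No paired analysis was possible because there is 1 group.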
